A study of Mus musculus with 17 samples.

Results

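In the Wnt pathway, TCF and LEF factors sit on DNA and, when Wnt proteins bind their receptors at the cell surface, are joined there by beta-catenin, which turns target genes on. Without a Wnt signal, beta-catenin is tagged for breakdown by a complex that holds Axin and APC. H3K27ac HiChIP loops were examined here for 7 genes of this pathway, namely the factors Tcf7l2, Tcf7l1, Tcf7 and Lef1, the coactivator gene Ctnnb1 (beta-catenin) and the targets Axin2 and Sp5, together with the loops of an intergenic anchor upstream of Tcf7l2 on chromosome 19. HiChIP links pairs of DNA regions that touch each other and carry a chosen protein, here histone H3 acetylated at lysine 27 (H3K27ac), a mark of active promoters and enhancers. A loop is a pair of such regions (anchors), and its value is the number of read pairs that join them.

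The members were chosen by name and by position. For each gene, loops were taken with an anchor no more than 5 kb from a transcription start (TSS) in the mm9 annotation, out of 22367 protein-coding genes. The anchor at chr19:55786158-55791336 was chosen from an earlier comparison of these same libraries, where it was among the 3 anchors with the smallest p of those higher in cluster2 than in bulk, so its level and its loops are described here without a test. The 7 genes had 487 loops and the anchor had 34, of which 3 were shared, giving 518 of the 1211657 loops of the series.

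All libraries came from mouse embryonic stem cells grown into embryoid bodies (EBs) by the hanging drop method and treated with 0.5 µM retinoic acid (RA) for 4 days, RA being a vitamin A derivative that drives differentiation. The 12 bulk libraries hold the unsorted mixture of cells. The 5 cluster2 libraries hold cells sorted by flow cytometry as double positive for the surface proteins EpCAM and CD38, which are also part of the unsorted mixture. In bulk libraries, more cells with a loop and more read pairs per cell cannot be told apart. The methods describe independent sorts of double positive cells without saying which library came from which sort, and do not say whether the bulk libraries came from separate cultures, so the spread between libraries, which p-values measure, may be partly technical.

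Loops held between 65148 and 241068 read pairs in a bulk library and between 50508 and 118179 in a cluster2 library. The loops of the cluster2 libraries used 6.98% of the 216081 anchors, whereas 200999 anchors were used by bulk loops alone. A gene without an anchor in cluster2 loops therefore has a count of 0 there, and 3049 of the 14115 genes tested (21.6%) were of this kind, all 3049 of which were called lower in cluster2. Over all 14115 genes tested, 20.6% were called higher in cluster2 and 42.8% lower, and the marker counts stand beside these shares. Among marker genes of other cell types the 7 neural genes tested (of 10) were all lower in cluster2. Their summed level ran from 62.9 to 156 CPM there against 1010 to 1980 in bulk. Of 10 endoderm markers, 5 were higher and 2 were lower, with summed levels of 1470 to 1840 CPM against 328 to 776, and the markers of the sort, Epcam and Cd38, were not called (log2 fold change 1.05, adjusted p = 0.107, and 0.65, adjusted p = 0.195, edgeR). Of 4 pluripotency markers tested, 3 were higher and 1 was lower (158 to 308 CPM against 134 to 502). These marker levels moved with every difference between the groups given below, and their part in the results was not tested.

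The sequences that the results turn on are shown first, from the mm9 genome. They are the 250 bases before the start of Tcf7l2, whose loops held more read pairs in cluster2, those of Axin2 and Sp5, the targets, and the windows of the anchor and of its strongest partner within Vti1a that hold the most motif matches. Capitals mark matches on both strands. The TCF/LEF motif was searched as CTTTGAT or, in its other form, with the letters CTTTGAA in its place. The motif of GATA factors was searched as AGATAA. The motif of forkhead factors was searched as TGTTTAC. No match of one motif overlapped a match of another in these windows.
Tcf7l2 promoter, chr19:55816050-55816299, plus strand: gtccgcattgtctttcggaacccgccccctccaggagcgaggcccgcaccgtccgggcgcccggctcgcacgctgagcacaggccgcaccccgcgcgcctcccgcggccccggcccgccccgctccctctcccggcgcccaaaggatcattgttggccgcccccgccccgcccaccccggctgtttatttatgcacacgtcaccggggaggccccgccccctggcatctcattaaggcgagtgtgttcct
Axin2 promoter, chr11:108781413-108781662, plus strand: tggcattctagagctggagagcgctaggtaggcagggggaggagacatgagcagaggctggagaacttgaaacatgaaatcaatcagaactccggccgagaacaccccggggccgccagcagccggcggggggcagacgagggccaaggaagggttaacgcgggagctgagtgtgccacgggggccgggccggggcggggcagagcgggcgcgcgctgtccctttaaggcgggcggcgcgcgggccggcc
Sp5 promoter, chr2:70312730-70312979, plus strand: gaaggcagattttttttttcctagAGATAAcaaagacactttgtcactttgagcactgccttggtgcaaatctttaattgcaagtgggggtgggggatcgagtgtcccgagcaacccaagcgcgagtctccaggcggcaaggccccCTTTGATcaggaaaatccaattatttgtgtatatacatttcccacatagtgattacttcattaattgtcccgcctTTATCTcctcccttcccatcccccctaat
Intergenic anchor, chr19:55786758-55787057, plus strand: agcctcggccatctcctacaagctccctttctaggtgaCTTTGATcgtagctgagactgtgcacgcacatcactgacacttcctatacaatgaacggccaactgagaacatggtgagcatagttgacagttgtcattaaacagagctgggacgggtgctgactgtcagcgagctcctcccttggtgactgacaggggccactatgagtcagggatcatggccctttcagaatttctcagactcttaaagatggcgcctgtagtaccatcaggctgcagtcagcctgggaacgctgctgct
Partner in Vti1a, chr19:55669385-55669684, plus strand: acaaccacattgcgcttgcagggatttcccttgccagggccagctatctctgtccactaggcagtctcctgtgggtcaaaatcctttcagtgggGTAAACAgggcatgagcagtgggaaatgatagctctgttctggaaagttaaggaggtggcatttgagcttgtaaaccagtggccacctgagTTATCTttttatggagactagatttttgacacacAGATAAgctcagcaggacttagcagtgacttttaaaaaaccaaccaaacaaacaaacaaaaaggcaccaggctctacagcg

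The Sp5 promoter held 1 TCF/LEF match and 2 GATA matches, and the Tcf7 promoter held 1 TCF/LEF match. The promoters of Tcf7l2, Tcf7l1, Lef1 and Axin2 held no match of any of the motifs, and that of Ctnnb1 held 1 GATA match. Among the promoters of 22362 genes, of the same length, 7.13% held a TCF/LEF match, 9.33% a GATA match and 2.74% a forkhead match. The whole anchor on chromosome 19, of 5179 bp, held 1 TCF/LEF match, 1 forkhead match and no GATA match. That is 0.193 TCF/LEF matches per kb, against a median of 0.313 over the 15082 anchors in cluster2 loops. The window shown of the Vti1a partner held 2 GATA matches and 1 forkhead match, and 0.561% of windows of 300 bases in these anchors held at least 3 matches of any of the motifs, where 9.72% held a TCF/LEF match, 13.2% a GATA match and 3.68% a forkhead match. The windows shown were picked for their matches, and a match is a description of the letters only.

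The anchor on chromosome 19 lay between genes, 24964 bp before the first Tcf7l2 start, with no start of any annotated gene within 5 kb. Tcf7l2 was among its partners. In the cluster2 libraries the anchor had 111, 74, 50, 51 and 101 read pairs in replicates 1 to 5, a total of 387 in loops to 20 partners. In the bulk libraries it had between 0 and 7 read pairs with a median of 2.5, a total of 35 in loops to 22 partners. Every cluster2 library lay above every bulk library, in the contrast from which the anchor was chosen.

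Of the 387 cluster2 read pairs of the anchor, 77 (19.9%, 95% Clopper-Pearson interval 16.0 to 24.2) went to Tcf7l2 starts. These were 28 of 111, 14 of 74, 7 of 50, 12 of 51 and 16 of 101 read pairs in replicates 1 to 5, so that the share ran from 14.0% to 25.2% and each library held such pairs. Of the 77, 73 went to the anchor at the first Tcf7l2 start (chr19:55815232-55819005), 28372 bp away, and 4 went to the anchor at internal starts (chr19:55969286-55972042), 181917 bp away. In bulk, 1 of 35 read pairs (2.86%, interval 0.0723 to 14.9) went to a Tcf7l2 start, from replicate 9 to the anchor at chr19:55811352-55812976, which no cluster2 loop used. Between anchors that loops of both groups used, bulk had 19 read pairs at the anchor and 0 of them went to Tcf7l2, which allows a share of up to 15.8% when the limit is set at 3 counts, not as a Clopper-Pearson bound. Intervals cover counting error only. The mean share was 19.5% ± 4.82 (SD, n = 5) in cluster2 and 3.03% ± 10.1 (SD, n = 11) in bulk, where replicate 10 had no read pair and was left out. Without bulk replicate 9, the bulk share was 0 in each of the 10 libraries left. No test is given for the share, since the anchor was chosen from this contrast.

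The partner with the most cluster2 read pairs was not Tcf7l2 but the anchor at chr19:55773165-55776195, 14067 bp away, with 122 read pairs (31.5%). It lies within 5 kb of a start of the long noncoding RNA gene 4930552P12Rik, and it was also the strongest bulk partner, with 9 of 35 read pairs (25.7%). After the first Tcf7l2 start came an intronic anchor of Vti1a (chr19:55666685-55672303, 119253 bp away), a gene for a vesicle transport protein, with 63 read pairs in cluster2 and 2 in bulk. The next were intronic anchors of Tcf7l2 at chr19:55857579-55866239, with 27 and 1 read pairs, and at chr19:55939242-55943790, with 22 and 1. The first 3 partners together took 66.7% of the cluster2 read pairs, and 96.1% lay within 250 kb. In bulk, the next partners were Vti1a introns at chr19:55630047-55632226, with 3 read pairs against 12 in cluster2, and at chr19:55609805-55613416 and chr19:55649388-55654563, with 2 each and none in cluster2. The latter pair of anchors was in no cluster2 loop at all, as were 14 of the 22 bulk partners.

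Many partners of the anchor were also partners of Tcf7l2 in both groups. Of the 18 other cluster2 partners, 11 also had a loop to a Tcf7l2 start in cluster2. The 22 bulk partners include 1 at a Tcf7l2 start, which was not counted, and 18 of the others had such a loop in bulk. Of the 18 cluster2 partners, 7 held a start of another protein-coding gene. The anchor at 4930552P12Rik, for example, had 59 cluster2 read pairs to Tcf7l2 starts, and the Vti1a intron had 47. The arcs of the locus map show the anchor, its upstream partners and the first Tcf7l2 start joined to each other in cluster2.

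**Figure D1:**
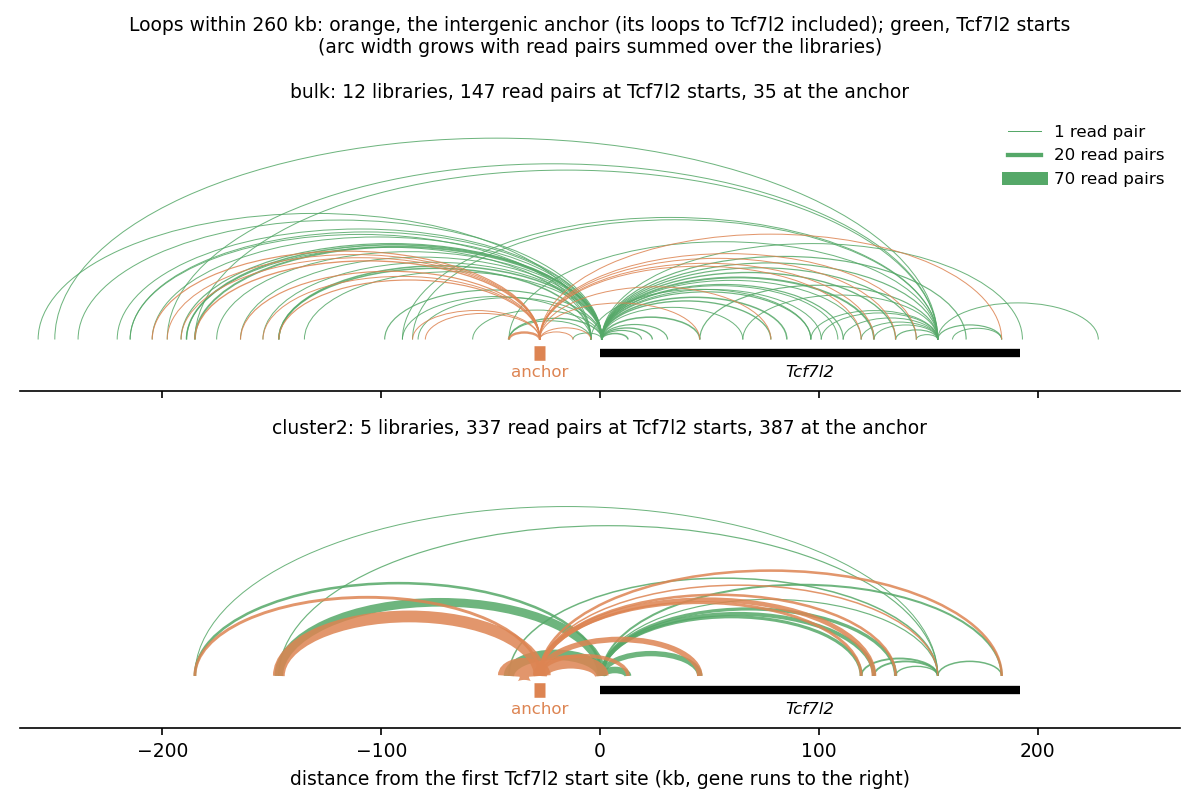
Loops within 260 kb of the first Tcf7l2 start in bulk (top, 12 libraries) and cluster2 (bottom, 5 libraries), by distance from that start in kb. Each arc is a loop, its width grows with the read pairs summed over the libraries, and orange arcs belong to the intergenic anchor and green arcs to Tcf7l2 starts. In cluster2 a few wide arcs join the anchor with the first start (73 read pairs) and with upstream partners (122 and 63), whereas bulk has many thin arcs.

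**Figure D2:**
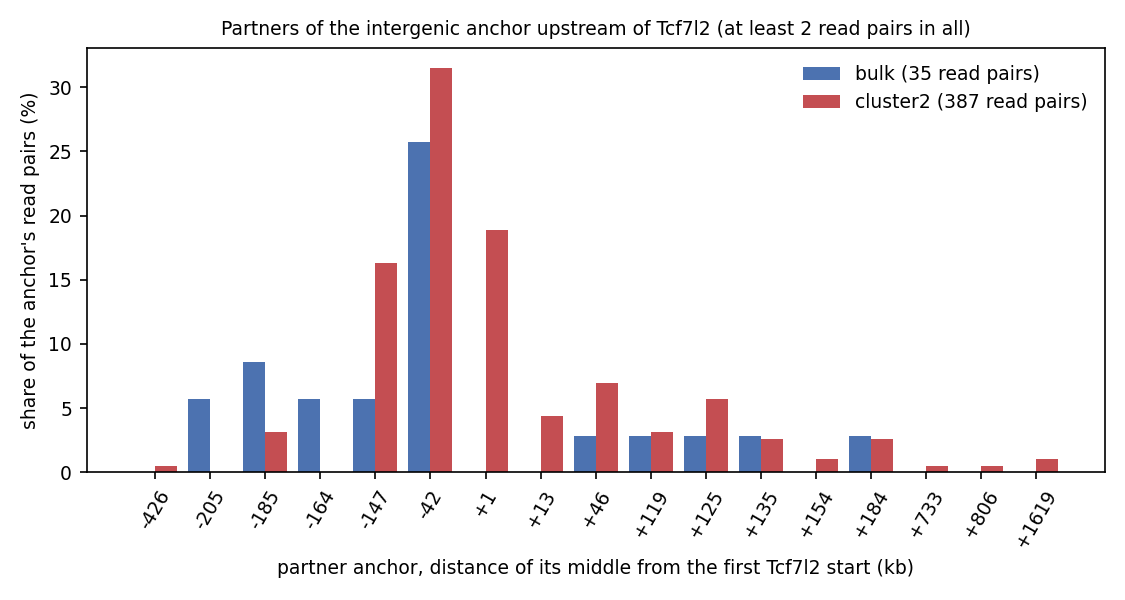
Share of the read pairs of the intergenic anchor that went to each partner with at least 2 read pairs in all, in % of 35 bulk (blue) and 387 cluster2 (red) read pairs; partners are ordered by the distance of their middle from the first Tcf7l2 start in kb. The partner next to 4930552P12Rik leads in both groups (25.7% and 31.5%), and the first Tcf7l2 start takes 18.9% in cluster2 and 0 in bulk.

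Tcf7l2, which codes for TCF4, a main partner of beta-catenin in gut epithelium, lies at chr19:55816300-56008144 on the plus strand. It had more loop read pairs in cluster2 than in bulk. Its loops held 120, 64, 42, 37 and 74 read pairs in cluster2 replicates 1 to 5, and between 4 and 28 with a median of 11.5 in a bulk library. Normalized for library (CPM, read pairs per 1000000 of the library total after TMM scaling), these were 438, 313, 330, 292 and 304 in cluster2 and 60.3 to 246 with a median of 124 in bulk. All 5 cluster2 libraries lay above all 12 bulk libraries. The mean was 335 CPM ± 59.1 (SD, n = 5) against 129 ± 51.8 (SD, n = 12), with a log2 fold change of 1.38 ± 0.22 (SE, edgeR quasi-likelihood test, adjusted p = 1.65e-06). This was 1.90 above the median of all genes, which was -0.52.

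Loops with the intergenic anchor made up 22.8% of the Tcf7l2 read pairs in cluster2. Without all loops of that anchor the log2 fold change of Tcf7l2 was 1.02 (adjusted p = 0.000198, edgeR). This is the same contrast of the same libraries, in which the members were chosen with earlier results known, and is no independent support. Scaling by library size alone gave 3.14, which was 1.93 above the median of all genes of 1.21 under that scaling. Between anchors that loops of both groups used, it was 1.74 (adjusted p = 1.37e-09), where the median of all genes was 0.42. Those anchors held 46 of the 147 bulk read pairs (31.3%) and all 337 of cluster2.

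The first start of Tcf7l2 and its internal starts are described apart, without a test. Anchors at the first start held 306 read pairs in cluster2, from 37 to 112 in a library, and 113 in bulk, from 1 to 21. Anchors at internal starts, which begin shorter transcripts, held 33 read pairs in cluster2 and 36 in bulk, and 2 read pairs in each group joined the first start to the internal starts. Of the cluster2 read pairs, 73 of the 306 and 4 of the 33 went to the intergenic anchor, which was chosen for being higher in cluster2. Upstream partners took 60.2% of the Tcf7l2 read pairs in cluster2 (interval 54.8 to 65.5) and 40.8% in bulk (32.8 to 49.2). The 203 upstream read pairs of cluster2 include 77 to the intergenic anchor, and the 60 of bulk include 1. That anchor was chosen from this contrast, so the gap between these shares is partly due to the choice. Of the cluster2 read pairs, 11 (3.26%) went to anchors with a protein-coding start, and in bulk 7 did (4.76%).

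Of the 518 loops, 11 had enough read pairs for a test, and 5 of these belong to the intergenic anchor and are described above. Of the 6 others, 5 were higher in cluster2 and none was lower, where 38.1% of all 5369 loops tested were higher and 22.4% were lower. The 5 higher loops had 26 to 55 read pairs in cluster2 and 1 to 4 in bulk. Each therefore passed the filter of 20 read pairs through cluster2 alone and had to differ. Their count, their p-values and the separation of their libraries, here and below, say nothing about the members. For Tcf7l2 these were the loops of its first start to 4930552P12Rik, the Vti1a intron and 2 anchors inside the gene. The loop to 4930552P12Rik (42438 bp) had 20, 8, 11, 7 and 9 read pairs in cluster2 replicates 1 to 5 and 3 in all of bulk, in 3 libraries. Its mean was 43.9 CPM ± 15.2 (SD, n = 5) against 2.66 ± 5.16 (SD, n = 12), a log2 fold change of 3.46 ± 0.60 (SE, edgeR adjusted p = 9.21e-08), and all 5 cluster2 libraries lay above all of bulk.

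The loop to the Vti1a intron (chr19:55666685-55672303, 147624 bp from the first start) had 18, 9, 5, 4 and 9 read pairs in cluster2 and 4 in bulk, in 3 libraries, with a log2 fold change of 2.81 ± 0.59 (SE, edgeR adjusted p = 9.77e-06). Of the cluster2 libraries, 4 lay above every bulk library. The loops to chr19:55828056-55830109 and chr19:55857579-55866239, inside Tcf7l2, had 33 and 26 read pairs in cluster2 and 4 each in bulk, with log2 fold changes of 2.36 ± 0.63 (edgeR adjusted p = 0.000538) and 2.07 ± 0.65 (adjusted p = 0.00362). The loop to chr19:55939242-55943790, a strong bulk loop of the gene with 6 read pairs, had 18 in cluster2 and was not called (1.08 ± 0.62, edgeR adjusted p = 0.118). Equal to it in bulk was the loop to the Vti1a intron at chr19:55630047-55632226, with 6 read pairs in bulk and 10 in cluster2. Of the loops with 4 read pairs in bulk, that to the Vti1a intron at chr19:55625990-55628596 had none in cluster2.

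Tcf7l1, which codes for TCF3, known as a repressor of Wnt targets in embryonic stem cells, lies at chr6:72576372-72739248 on the minus strand and was also higher in cluster2. Its loops held 55, 35, 25, 22 and 42 read pairs in cluster2 replicates 1 to 5, and between 1 and 15 with a median of 5 in a bulk library. In CPM these were 201, 171, 197, 173 and 173, against 14.6 to 107 with a median of 59.6. The 5 cluster2 libraries lay above all 12 bulk libraries and close to each other. The mean was 183 CPM ± 14.5 (SD, n = 5) against 59.7 ± 28.4 (SD, n = 12), a log2 fold change of 1.56 ± 0.26 (SE, edgeR adjusted p = 4.12e-06), which was 2.08 above the median gene. It was 3.32 with library size alone and 2.43 between anchors that both groups used (edgeR adjusted p = 7.19e-10). Those anchors held 15 of its 71 bulk read pairs (21.1%) and all 179 of cluster2. Tcf7l1 thus passed the filter there through cluster2 alone, and that p is no evidence.

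The strongest Tcf7l1 loop joined its first start (chr6:72737122-72740501) with an intron at chr6:72723665-72727002, 13478 bp away. It had 10, 7, 3, 3 and 10 read pairs in cluster2 and 1 in bulk, a log2 fold change of 3.75 ± 0.77 (SE, edgeR adjusted p = 5.54e-06), and all 5 cluster2 libraries lay above all of bulk. This loop passed the filter through cluster2 alone, so it had to differ, and its p and the separation are no evidence. The next loops joined the first start and the anchor at chr6:72578104-72581479 with the start of Tgoln1, a gene for a Golgi membrane protein, with 15 and 12 read pairs in cluster2 and 1 each in bulk. The latter Tcf7l1 anchor lies near starts of both Tcf7l1 and Gm15401, so its 63 cluster2 read pairs cannot be given to either gene alone. In bulk, the leading Tcf7l1 loop went from the first start to an intron at chr6:72689703-72691730, with 5 read pairs and none in cluster2. The others came from the anchor at chr6:72585088-72587907, which no cluster2 loop used, with 4 read pairs to the first start and 3 to Tgoln1. Anchors with a protein-coding start took 58.1% of the Tcf7l1 read pairs in cluster2 (interval 50.5 to 65.4) and 38.0% in bulk (26.8 to 50.3). This was not particular to Tcf7l1. The share was also higher in cluster2 for Tcf7 (70.4% against 30.8%), Lef1 (44.4% against 22.2%), Axin2 (68.4% against 21.5%) and Sp5 (83.3% against 12.5%). It was not higher for Tcf7l2 (3.26% against 4.76%), and the share over all loops is not given.

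Tcf7, which codes for TCF1, a factor best known from T cells, did not differ beyond the spread between libraries. Its loops at chr11:52065873-52096681 held 7, 7, 3, 1 and 9 read pairs in cluster2 and between 0 and 15 in bulk with a median of 2.5. The groups overlapped. The mean was 25.6 CPM ± 11.4 (SD, n = 5) against 35.1 ± 43.4 (SD, n = 12), a log2 fold change of -0.37 ± 0.53 (SE, edgeR adjusted p = 0.555). Bulk replicate 8 held 15 of the 39 bulk read pairs. The sign was not stable. It was 0.17 without bulk replicate 8, 1.37 with library size alone and 1.22 between anchors of both groups (adjusted p = 0.782, 0.0152 and 0.112). Its leading cluster2 loops went to chr11:52036577-52038944 (6 read pairs, none in bulk), to the shared start of Cdkl3 and Ube2b (4 and none) and to Skp1a, a gene for a subunit of ubiquitin ligases (3 and 2). The leading bulk loops went from both Tcf7 anchors to Skp1a and from the outer anchor to chr11:52072981-52076376 inside the gene, with 2 read pairs each, as several other bulk loops had.

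Lef1, the fourth factor of the family, had few loop read pairs in either group. At chr3:130813389-130927274 it had 2, 1, 2, 3 and 1 read pairs in cluster2 and 0 to 6 with a median of 1 in bulk, where 5 of the 12 libraries had none. The mean was 11.1 CPM ± 8.38 (SD, n = 5) against 13.5 ± 19.5 (SD, n = 12), and the difference was not called (log2 fold change -0.61 ± 0.68, edgeR adjusted p = 0.449). Library size alone turned its sign (1.05, adjusted p = 0.175). Of its 9 cluster2 read pairs, 5 came from 2 anchors of its start to an intergenic anchor at chr3:130391343-130398652, 4 of them over 419428 bp and seen in 4 of the 5 libraries, and bulk had none there. A further 2 went to the start of Ostc, a gene for a subunit of oligosaccharyltransferase. In bulk, 2 read pairs went to chr3:130622616-130627718, and the other Lef1 loops had 1 each, to the start of the ribosomal protein gene Rpl34 and to chr3:130449067-130451267 among others.

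Ctnnb1, the beta-catenin gene itself, had loops in bulk alone. Its loops at chr9:120838334-120869625 held 81 read pairs in bulk, between 1 and 22 in a library with a median of 6.5 (69.3 CPM ± 35.0, SD, n = 12), and 0 in each cluster2 library. None of the 5 anchors at its starts was used by a cluster2 loop, and so no fold is given. The gene was called lower (edgeR adjusted p = 3.16e-08), as were all tested genes without an anchor in cluster2 loops. Its bulk loops were thinly spread, with 81 read pairs over 76 loops. The leading loops had 2 read pairs each, for example to the intergenic anchors at chr9:120504731-120507298, chr9:120509534-120513053 and chr9:120639977-120642590. Of the read pairs, 77.8% spanned at least 100 kb (interval 67.2 to 86.3), and 11.1% went to anchors that cluster2 loops used.

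Axin2, a direct Wnt target that feeds back on beta-catenin breakdown, had fewer loop read pairs in cluster2. Its loops at chr11:108781663-108812097 held 3, 4, 1, 4 and 7 read pairs in cluster2 replicates 1 to 5, and between 4 and 40 with a median of 15 in bulk. In CPM these were 10.9, 19.5, 7.86, 31.5 and 28.8, against 68.2 to 585 with a median of 146, so all 5 cluster2 libraries lay below all 12 bulk libraries. Bulk replicates 5 and 11 were the highest, with 585 and 364 CPM. The mean was 19.7 CPM ± 10.5 (SD, n = 5) against 183 ± 147 (SD, n = 12), a log2 fold change of -3.12 ± 0.45 (SE, edgeR adjusted p = 4.6e-07), and -1.37 with library size alone (adjusted p = 0.00681).

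Most of the bulk read pairs behind this call used anchors that cluster2 loops did not use. Of the 5 anchors at Axin2 starts, 4 were in bulk loops alone, and anchors of both groups held 14 of the 191 bulk read pairs (7.33%). Between those anchors, with 14 bulk and 19 cluster2 read pairs, the log2 fold change was -0.60 and was not called (adjusted p = 0.381, edgeR). Relative to the median gene it was -1.02 there. The parts of anchor use and of few read pairs in the loss of the call were not tested. The leading bulk loops were short. They joined 2 start anchors with chr11:108791535-108793431 inside the gene (5948 and 10924 bp, with 7 and 6 read pairs) and the first start with chr11:108770159-108774717 (9121 bp, 5 read pairs), and cluster2 had none. All 19 cluster2 read pairs spanned at least 100 kb (interval 82.4 to 100), and in bulk 63.9% did (56.6 to 70.7). Between anchors of both groups all 14 bulk read pairs did so too (interval 76.8 to 100), so no difference in this share was seen there. The cluster2 read pairs went, for example, to the starts of E030025P04Rik (4 read pairs, 2 in bulk) and of Gm11696 and Gna13 (4 and 2), Gna13 being a gene for a G protein subunit, and to chr11:108929404-108933459 (3 and 5).

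Sp5, a zinc finger gene that is among the most direct Wnt targets and whose promoter is shown above, had 1, 1, 0, 1 and 3 read pairs in cluster2 and 0 to 9 with a median of 1 in bulk, at chr2:70312980-70315786. Bulk replicate 8 held 9 of the 16 bulk read pairs. The mean was 5.75 CPM ± 4.64 (SD, n = 5) against 15.2 ± 25.8 (SD, n = 12), and the groups overlapped (log2 fold change -1.14 ± 0.81, edgeR adjusted p = 0.222). Library size alone turned its sign (0.49, adjusted p = 0.592). No Sp5 loop was seen in both groups. Cluster2 had 2 read pairs to the start of Gorasp2 and 1 each to the starts of Nostrin and Bbs5, and bulk had 5 to an intron of Myo3b (chr2:70014178-70017154, in 4 libraries), 2 to chr2:70457590-70459867 and 1 to chr2:70096367-70098600.

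**Figure D3:**
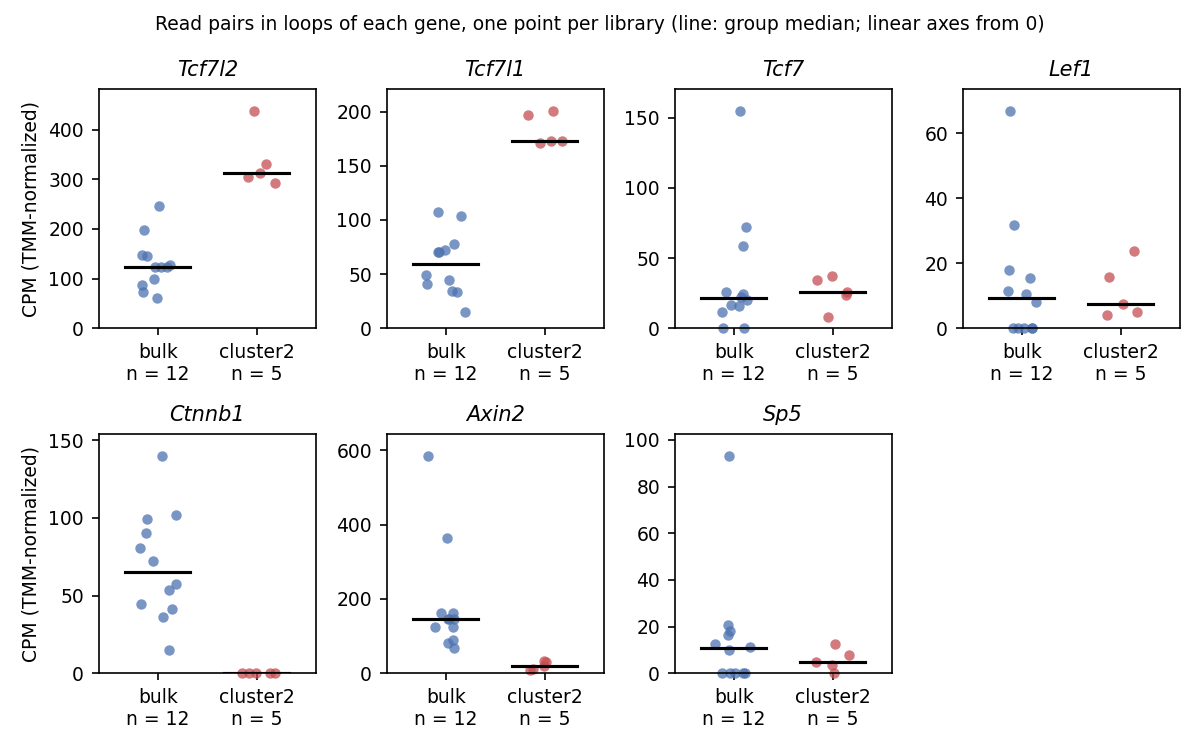
Read pairs in loops of each of the 7 genes, in CPM with TMM scaling on linear axes from 0; each point is a library (blue, 12 bulk; red, 5 cluster2) and each line is the group's median. The groups do not overlap for Tcf7l2 and Tcf7l1 (cluster2 above) and for Ctnnb1 and Axin2 (cluster2 below, Ctnnb1 at 0), and overlap for Tcf7, Lef1 and Sp5.

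In all, 2 of the 7 genes were higher in cluster2 and 2 were lower, where 20.6% of the 14115 genes tested were higher and 42.8% were lower. All 7 passed the filter of 20 read pairs. The 2 lower genes, Ctnnb1 (81 read pairs in bulk and 0 in cluster2) and Axin2 (191 and 19), reached 20 through bulk alone. Relative to the median gene, Tcf7l2 and Tcf7l1 lay above and Axin2 below it under TMM, library size and DESeq2 size factors. The values were 1.90 to 1.93, 2.08 to 2.11 and -2.67 to -2.59. Between anchors of both groups they were 1.33, 2.01 and -1.02. There Tcf7l1 passed the filter through cluster2 alone and Axin2 was not called, so nothing is drawn from those 2 values. Loops of the 7 genes of at least 100 kb took 49.9% ± 3.03 (SD, n = 5) of their read pairs in cluster2 and 64.1% ± 7.98 (SD, n = 12) in bulk. The same share over all loops was 44.7% ± 0.285 and 55.2% ± 1.47, so a lower share in cluster2 was not particular to these genes. The members did not go 1 way, as Tcf7l2 read pairs spanned a median of 42438 bp in cluster2 and 143774 bp in bulk, and those of Axin2 442789 and 189932 bp. Between anchors of both groups the bulk medians were 124398 bp for Tcf7l2 and 256934 bp for Axin2, the latter over 14 read pairs.

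The other genes of the pathway were taken from lists of 84 genes by role, of which 66 could be tested. Of these, 9 (13.6%) were higher and 39 (59.1%) were lower in cluster2, where 20.6% of all genes were higher and 42.8% were lower. The median log2 fold change was -1.23 against -0.52 for all genes. The split turned with the scaling. With library size alone 27 were higher and 12 lower (median 0.50 against 1.21), where 55.3% of all genes were higher and 26.2% lower. Between anchors of both groups 9 were higher and 6 lower of 48 (median 0.33 against 0.42), where 25.7% of all genes were higher and 10% lower. Of the 9 higher genes, 6 stayed higher between those anchors, and of the 39 lower genes, 6 stayed lower.

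The counts by role that follow stand beside 20.6% higher and 42.8% lower over all genes. Nuclear cofactors of TCF and LEF held 3 higher and 4 lower genes of 9. Higher were Pygo2 (27.1 CPM ± 23.3 in bulk and 121 ± 31.3 in cluster2, log2 fold change 2.14, adjusted p = 4.98e-06) and Bcl9l (1.74, adjusted p = 9.74e-05), which bridge beta-catenin to the transcription machinery, and Tle2 (1.72, adjusted p = 1.03e-05), a Groucho corepressor. All 3 remained higher between anchors of both groups, at 1.74, 0.91 and 1.11. Lower were the corepressor genes Ctbp2 (-2.68, adjusted p = 1.22e-08), Tle1 (-3.27, adjusted p = 8.91e-05) and Tle4 (-0.96, adjusted p = 0.0322), and Bcl9 (-1.58, adjusted p = 0.00201). Between anchors of both groups Ctbp2 (-0.39, adjusted p = 0.514) and Bcl9 (-0.26, adjusted p = 0.688) were not called, and Tle1 had no value. Tle4 turned to higher there (2.26, adjusted p = 0.00407). Its bulk read pairs at those anchors were not counted apart, so nothing is drawn from that p. These p-values and those of the next 2 paragraphs are from edgeR.

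The Dishevelled and destruction complex genes held 2 higher and 3 lower genes of 8. Dvl2, a scaffold that relays the signal from receptors, rose from 104 CPM ± 31.0 to 349 ± 54.6 (1.67, adjusted p = 2.65e-08), and Gsk3a, a kinase of the destruction complex, had a log2 fold change of 1.28 (adjusted p = 0.00208). Between anchors of both groups these were 0.72 (adjusted p = 0.00834) and 0.52, the latter not called (adjusted p = 0.106). Among the 14 receptors tested 1 was higher, Fzd5 (1.22, adjusted p = 0.0148), and 10 were lower. The latter included Fzd10, with 42 read pairs in bulk and none in cluster2, and the R-spondin receptors Lgr5 (-3.49, adjusted p = 8.39e-06) and Lgr4 (-2.81, adjusted p = 4.24e-05). Lgr4 was not called with library size alone (-1.06, adjusted p = 0.0722) or between anchors of both groups (-0.06, adjusted p = 0.942).

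Of 15 ligands tested, 2 were higher, Wnt2b (1.1, adjusted p = 0.00527) and Wnt3a (1.06, adjusted p = 0.0422), neither of which was called between anchors of both groups (0.68 and 0.52, adjusted p = 0.185 and 0.42), and 7 were lower, among them Wnt5b (-4.62, adjusted p = 4.65e-07) and Wnt8b, with 58 read pairs in bulk and none in cluster2. Of 12 inhibitors at the cell surface, 9 were lower and 1 was higher. The latter was Kremen2, a receptor of Dkk proteins, at 23.7 CPM ± 16.9 in bulk and 104 ± 21.9 in cluster2 (2.11, adjusted p = 6.5e-06, and 1.33 between anchors of both groups, adjusted p = 0.00312). The former included Kremen1, its paralog (-1.74, adjusted p = 4.5e-05), and Sfrp5 and Dkk1, with 51 and 26 read pairs in bulk and none in cluster2. Kremen1 was at 0.03 with library size alone and at 0.34 between anchors of both groups. Of 2 secretion and R-spondin genes tested, 1 was lower and none was higher. Of 6 other Wnt targets tested, 5 were lower and none was higher, among them Myc (-2.61, adjusted p = 3.68e-05, and -0.95 with library size alone, adjusted p = 0.119) and Cdx1, with 28 read pairs in bulk and none in cluster2. The 8 pathway genes without an anchor in cluster2 loops were all among the lower genes. Tle1, Lgr5, Lgr4, Wnt5b and Myc had 66, 62, 117, 120 and 58 read pairs in bulk and 5, 4, 14, 3 and 7 in cluster2. These genes thus passed the filter of 20 read pairs through bulk alone, and their p-values are no evidence. Of them, only Lgr4 had a value between anchors of both groups.

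**Figure D4:**
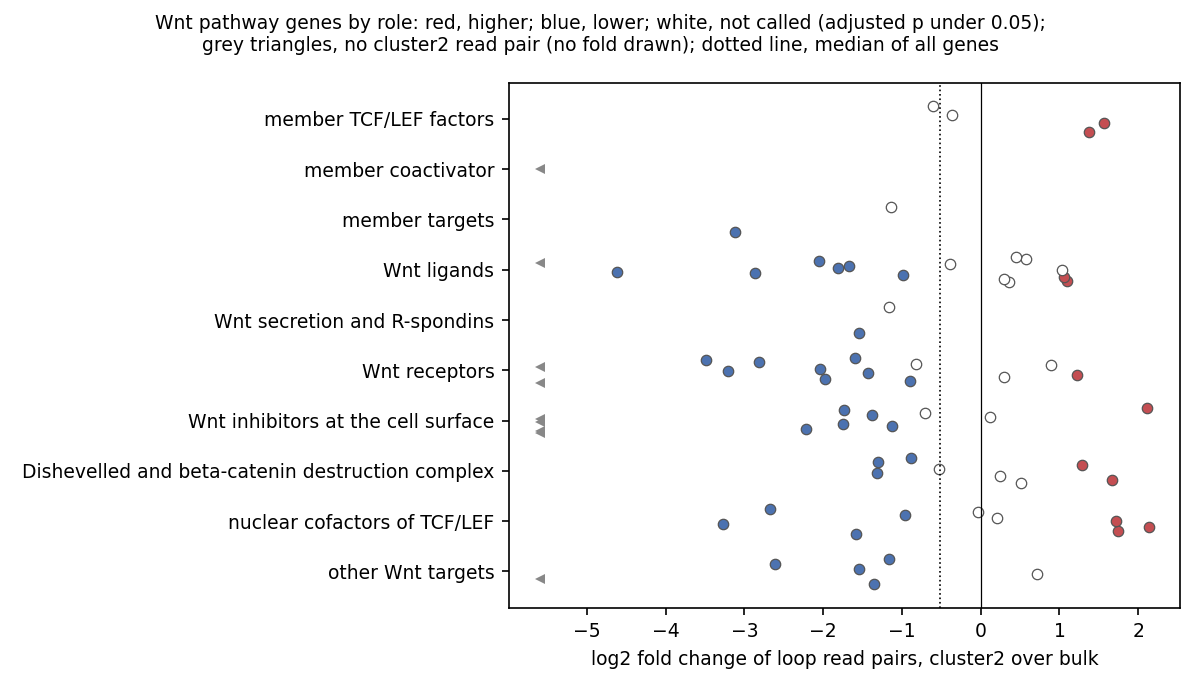
Log2 fold change (cluster2 over bulk, TMM scaling, edgeR) of loop read pairs for each pathway gene tested, grouped by role; red points are higher, blue points lower and white points not called at an adjusted p under 0.05, and grey triangles are genes with no cluster2 read pair, for which no fold is drawn. The dotted line is the median of all genes (-0.52); the 4 TCF/LEF factors hold 2 red points and no blue point.

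The genes whose loop levels were most like those of Tcf7l2 over the 17 libraries were Prrg2, Krt18, a keratin of simple epithelia, and Tln1, which codes for talin (Pearson r of log2(CPM + 1) of 0.95, 0.92 and 0.914). The libraries form 2 groups, so these values largely follow the difference between them, and r was 0.892, 0.785 and 0.869 within the 12 bulk libraries but -0.42, 0.326 and -0.703 within the 5 cluster2 libraries. All 3 genes were higher in cluster2 (log2 fold changes 1.37, 2.96 and 1.28).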

How the data were processed

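H3K27ac HiChIP was analysed in 12 bulk and 5 cluster2 libraries, grouped and numbered by their GEO titles. The authors mapped the reads with HiC-Pro to mm9, called peaks and loops with hichipper and left out replicates with few strong loops. The deposited counts give, per library, how many read pairs link 2 anchors, with no normalization. Loops without read pairs are not listed, and the samples whose peaks gave the anchors of each group are not given in the sources used here.

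Overlapping anchors of all libraries were joined, which gave 216081 anchors and 1211657 loops and dropped 700 read pairs within a joined anchor. Read pairs were summed per protein-coding gene over loops with an anchor within 5000 bp of a TSS of the mm9 annotation (GENCODE vM1). The filter asked for 20 or more read pairs in all, seen in 5 or more libraries. Genes and loops that passed went into edgeR 4.0.16 under R 4.3.3 (quasi-likelihood test after TMM, Benjamini-Hochberg adjustment over all genes or loops, adjusted p under 0.05). TMM factors were 0.57 to 0.80 in bulk and 2.32 to 2.51 in cluster2. SEs were derived from the F statistic. On simulated data with 200 of 14115 genes changed, 62% were recovered and 1.59% of calls were false. Unlike the data, the simulation changed few genes and left none without an anchor in cluster2. These rates therefore do not carry over to the calls made here. Sums over few read pairs carry a large counting error. Intervals are Clopper-Pearson at 95%, and PCR reads are not independent molecules.

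The members and gene lists were chosen with earlier results of these data known. Named were all members, their 3 loops with most read pairs in each group, the 5 partners of the anchor with most read pairs in each group, the 3 pathway genes with the smallest p per role and direction (at most 12 per direction) and the 3 genes most correlated with Tcf7l2 that share no anchor with it. Tle4 and Bcl9 were named besides, so that all lower cofactor genes are given. Exact permutation tests of 2 shares (anchor read pairs that go to Tcf7l2, member read pairs of at least 100 kb) were planned; the values are given as descriptions and no p is drawn from them, since the choice of the members used this contrast. Alternatives were library size alone, DESeq2 1.42.0 size factors (poscounts), a minimum of 50 read pairs, no filter, libraries thinned to the smallest, anchors in loops of both groups (shared anchors), spans of at least 20 kb, a TSS window of 2.5 kb, the replicate number as a block and each replicate left out. The fits without loops of the intergenic anchor and of the same 10 libraries without the block were added after the data were seen. Same-numbered libraries did not deviate together (correlations of their deviations from the group means between -0.0143 and 0.0104), and no 2 libraries held the same gene counts. Motifs and sequences were read with Python 3.11.15 from the mm9 genome. Single-cell data of the study were not used here.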

Additional observations from a re-analysis of the deposited data

Results flagged for a closer look

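Tcf7l2 in cluster2 was flagged because replicate 1 stood apart, at 438 CPM against 292 to 330 in the other 4 libraries. The gap to the next library was 0.737 of the range of the group, above Dixon's 95% limit of 0.71 for 5 samples. Of 9 groups of cluster2 values examined in this way this was the only flag, and chance flags about 1 group in 20. Without cluster2 replicate 1 the log2 fold change of Tcf7l2 was 1.26 (edgeR adjusted p = 4.85e-05), against 1.38 with it.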

How the results depend on the processing

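The calls of Tcf7l2 and Tcf7l1 kept their direction and their side of the threshold under every alternative that gave a value. On shared anchors, Tcf7l1 passed the filter through cluster2 alone. Ctnnb1 has no anchor in cluster2 loops, so its call was fixed in advance under each setting, and shared anchors gave it no value. With each library left out in turn, the log2 fold change ran from 1.26 to 1.46 for Tcf7l2, from 1.46 to 1.64 for Tcf7l1, from -3.34 to -2.84 for Axin2 and from -0.54 to 0.17 for Tcf7, where the highest value was that without bulk replicate 8. Library size alone turned the sign of Tcf7 (1.37), Lef1 (1.05) and Sp5 (0.49). It gave 7800 higher and 3702 lower genes against 2906 and 6040, so that 67.81% of calls were higher against 32.48%, and 27 higher and 12 lower pathway genes. Shared anchors gave Axin2 -0.60, no longer called, and Tcf7 1.22, with 988 lower genes, 71.95% of calls higher and 6 lower pathway genes, by construction without genes that have no cluster2 anchor. Lower genes numbered 3786 with at least 50 read pairs, 9771 with no filter and 3040 in thinned libraries, where 22 pathway genes were lower. The cause of the other changes was not tested.

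Loops higher and lower in cluster2 numbered 2044 and 1203, against 4129 and 740 with library size alone, 334 and 197 with at least 50 read pairs, and 1095 and 130 in thinned libraries. Lower loops numbered 44 with no filter, 552 on shared anchors and 413 at spans of at least 20 kb, and the share of called loops that were higher was 62.95%, 84.8% with library size alone, 81.87% on shared anchors, 78.49% at those spans, 89.39% in thinned libraries and 98.43% with no filter. Higher loops ran from 1206 to 1924 with a library left out, the lowest being without cluster2 replicates 1 (1206), 5 (1251) and 2 (1359).

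The replicate number as a block, over the 10 libraries numbered 1 to 5, gave 2451 higher and 3966 lower genes, 827 and 429 loops and a Tcf7 value of 0.02, where the same libraries without the block gave 2633 and 4171 genes, 1142 and 486 loops and 0.12. Same-numbered libraries share only a number. The loops of Tcf7l2 to the anchors at 55828056 and 55857579 were not called with the block (2.17 and 2.15, adjusted p = 0.0699 and 0.075). The loop to 55939242 was called higher with library size alone (3.25), on shared anchors (1.35), at spans of at least 20 kb (1.52) and without bulk replicate 9 (1.48). Tcf7, Lef1 and Sp5 had 27, 9 and 6 read pairs in cluster2, and the part of depth in their lack of a call was not tested.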
